A study of Mus musculus with 6 samples.

Results

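The transcription factors ATF4, ATF5, ATF3 and CHOP (gene Ddit3), the C/EBP proteins C/EBPβ (Cebpb) and C/EBPγ (Cebpg), the pseudokinase TRIB3, the chromatin-associated protein NUPR1 and the Jun partner JDP2 were followed as 9 named genes among the 52550 genes listed in each library. They were chosen by name, as the transcription factors and cofactors of the amino acid and unfolded protein stress response. The choice was made with earlier results of these data known. Their transcripts were measured in cortex of C57BL6/J mice at postnatal day 2, in Slc7a5fl/fl; Emx1Cre+ pups (knockout, n = 3) and in Slc7a5fl/fl; Emx1Cre- pups (control, n = 3). Both genotypes carried floxed alleles of Slc7a5, the gene of the large neutral amino acid transporter LAT1, and the Cre transgene was present in the knockouts only, so effects of Cre itself and of the deletion cannot be told apart. Emx1-driven Cre acts in the dorsal forebrain lineage, which gives rise to excitatory neurons and astrocytes, while most interneurons, microglia and vessel cells keep the gene. Each library holds polyadenylated RNA of 1 cortical hemisphere, and the titles give the 3 libraries of each genotype the letters A, B and C.

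When amino acids run short, uncharged tRNA activates the kinase GCN2, which phosphorylates the initiation factor eIF2α, and PERK does the same when unfolded proteins collect in the endoplasmic reticulum. General translation then slows, while the mRNAs of ATF4, ATF5 and CHOP are translated more efficiently because of short upstream open reading frames. ATF4 pairs with C/EBP proteins on C/EBP-ATF response elements (CARE) and raises genes of amino acid uptake, amino acid synthesis and tRNA charging, among them several of its own partners and inhibitors. Protein and translation were not measured here, so all values below are transcript levels.

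Atf5 had the largest fitted difference of the 8 genes that could be tested. Its transcript averaged 96.4 ± 25.1 reads per 1000000 gene reads (CPM) in knockout cortex and 43.3 ± 5.53 CPM in control cortex (SD, n = 3 each), a log2 change of 1.16 ± 0.18 (SE). Trib3 averaged 4.50 ± 1.76 CPM in knockouts and 2.15 ± 0.141 CPM in controls, a log2 change of 1.06 ± 0.32. Atf4, Ddit3, Cebpg and Jdp2 had fitted log2 changes of 0.18 to 0.29, and Nupr1, Cebpb and Atf3 were near the lower limit of what these libraries count. None of these 8 passed an adjusted p of 0.05 in edgeR's quasi-likelihood test of genotype alone, in which 0.0335% of all 14913 genes tested passed (5 genes, 0.0201% higher in knockouts and 0.0134% lower). At an unadjusted edgeR p under 0.05 there were 4 of the 8, all higher in knockouts, where 3.19% of all genes were higher and 3.81% lower. DESeq2 by genotype alone called 1, Atf5, where 0.23% of genes with an adjusted p passed. It gave no adjusted p to Trib3, Cebpb and Nupr1. With the letter as a block in edgeR, Atf5 was the 1 gene of the 8 that passed. Of all genes 0.845% passed, 0.329% higher in knockouts and 0.516% lower.

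Slc7a5 itself, the check of the labels, had 15.6, 9.37 and 11.4 CPM in knockouts A, B and C, against 20.2, 40.7 and 26.1 CPM in controls A, B and C. The groups did not overlap, and the cells that the remaining reads come from were not resolved. Reads counted on the gene strand were 8249436 to 10372582 per library. Summed markers of microglia were 179 to 222 CPM in knockouts and 150 to 182 CPM in controls, and those of mural cells and fibroblasts 147 to 206 CPM in knockouts and 110 to 207 CPM in controls. Summed markers of radial glia and intermediate progenitors did not overlap, at 368 to 398 CPM in knockouts and 318 to 361 CPM in controls, nor did those of the oligodendrocyte lineage, at 201 to 218 CPM in knockouts and 227 to 269 CPM in controls. Markers of excitatory cortical neurons, the defining cells of this tissue, were abundant, at 2779 to 3137 CPM in knockouts and 2889 to 3208 CPM in controls. Choroid plexus markers summed to 155 CPM in control B and to at most 33.2 CPM in any other library. The part of cell makeup in the values below was not tested, and in bulk tissue fewer cells of a type and less RNA per cell cannot be told apart.

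Atf4 (ENSMUSG00000042406, GRCm38 chr15:80255184-80257541, plus strand) encodes the central activator of the response. Its transcript stood at 398, 366 and 273 CPM in knockouts A, B and C, against 283, 286 and 309 CPM in controls A, B and C. Knockouts A and B lay above every control and knockout C below every control, so the groups overlapped. The fitted log2 change was 0.24 ± 0.13, with an edgeR adjusted p of 0.742 by genotype alone and 0.389 with the letter block. It was 0.13 without knockout A and 0.38 without knockout C. The values rested on 2303 to 3949 reads per library, so counting error was small beside the spread among knockouts.

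Atf5 (ENSMUSG00000038539, chr7:44812256-44816658, minus strand) encodes the closest relative of ATF4, known in the developing forebrain as a factor that keeps neural progenitors cycling. It had 117, 104 and 68.4 CPM in knockouts A, B and C, against 42.4, 49.2 and 38.3 CPM in controls A, B and C. The lowest knockout lay above the highest control, and the knockout was the higher library in each letter, by 1.46, 1.08 and 0.83 on the log2 scale for A, B and C. edgeR's quasi-likelihood test of genotype alone gave an adjusted p of 0.0875, at rank 12 of 14913 genes by p, and the fit with the letter block gave a log2 change of 1.13 ± 0.11 with an adjusted p of 1.74e-08, at rank 1. DESeq2 gave an adjusted p of 1.53e-07 by genotype alone, where 0.23% of genes with an adjusted p passed (0.102% higher in knockouts). With the block it gave 6.67e-11, where 0.154% passed (0.0805% higher). Leaving out 1 library at a time gave log2 changes of 0.997 to 1.35. Of these 6 edgeR fits 1 passed, without knockout C (adjusted p 1.53e-05). In the others the adjusted p ran from 0.0957 without knockout A to 0.277 without control C. An exact two-sided permutation test over the 6 libraries gave p = 0.1, the smallest that 3 against 3 allows. Atf5 lies across Nup62 and Il4i1, which are on the opposite strand, and the counts used were those of its own strand.

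Trib3 (ENSMUSG00000032715, chr2:152337422-152344032, minus strand) encodes a pseudokinase that is induced by ATF4 and CHOP and in turn binds and restrains ATF4. It had 6.07, 4.82 and 2.60 CPM in knockouts A, B and C, against 2.21, 1.98 and 2.24 CPM in controls A, B and C. All knockouts lay above all controls, knockout C by little. The read counts were low, with 59, 52 and 25 reads in knockouts A, B and C and 22, 16 and 22 reads in controls A, B and C. The edgeR adjusted p was 0.473 by genotype alone and 0.0952 with the letter block. Without both libraries of letter C, the blocked edgeR log2 change was 1.37 with an adjusted p of 0.0261. It was 0.77 without letter A (adjusted p 0.421) and 0.91 without letter B (adjusted p 0.260), which did not pass.

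**Figure D1:**
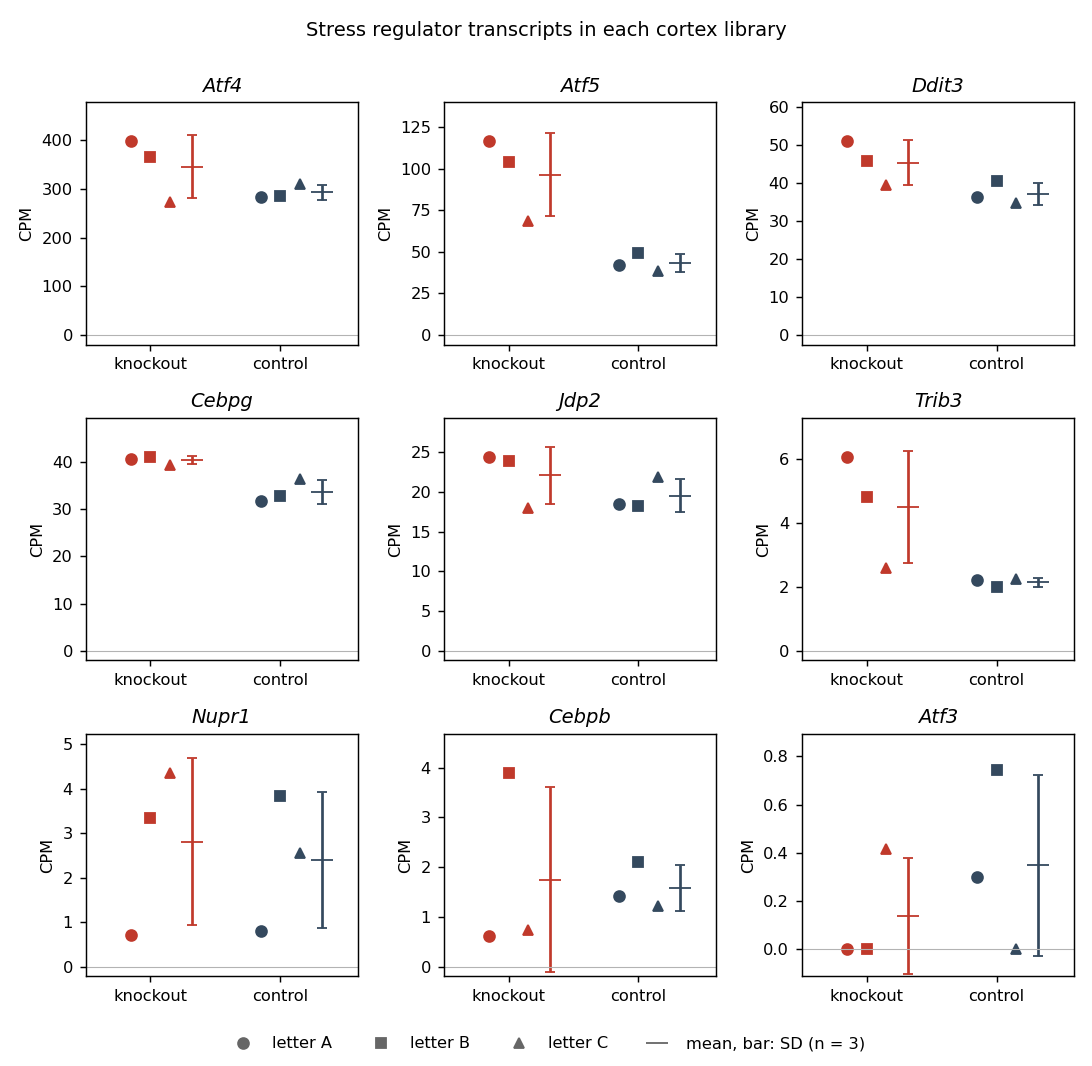
CPM (vertical axes, linear, a separate scale for each gene) of the 9 stress regulators in 3 knockout libraries (left, red) and 3 control libraries (right, blue), with circles for letter A, squares for B and triangles for C. Dashes are means and bars are SD (n = 3), which pass below 0 for Atf3 and Cebpb. The groups are apart for Atf5, Cebpg and Trib3, and knockout C is the lowest knockout for Atf4, Atf5, Ddit3, Cebpg, Jdp2 and Trib3.

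Start regions were read for all 9 genes from RefSeq (build GRCm38.p6), as windows of 250 bases before to 50 after each annotated start, 12 windows in all. The CARE letters TGATGCAA, searched on both strands (TTGCATCA on the other), are found in 0.895% of the 32851 RefSeq mouse windows of this length. They occur in windows of 3 of the 9 genes, Atf3, Nupr1 and Jdp2, in 1 window each. Jdp2 has 3 windows, so the count of genes is not on the scale of the share of windows. The looser letters TGATGNAA, which include every CARE match and occur in 3.97% of all windows, add Trib3. The windows of Atf4, Atf5, Cebpb and Cebpg hold none of the motifs searched, and that of Ddit3 holds only the AP-1 letters TGANTCA (7.81% of all windows) at -242 to -236 from the start. Neither the cAMP response element TGACGTCA nor the endoplasmic reticulum stress element, CCAAT and CCACG spaced by 9 bases, found in 1.79% and 0.119% of all windows, occurs in any of the 12 windows.

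The 5 windows printed next are those of the 2 genes with the largest fitted changes, Atf5 and Trib3, and the 3 with CARE letters, on the strand of the gene and 5′ to 3′. Capitals mark matches to the CARE letters in Atf3, Nupr1 and Jdp2 and the match to the looser letters alone in Trib3, and none is marked in Atf5. Positions are chr7:44816609-44816908 (minus strand) for Atf5, chr2:152344011-152344310 (minus) for Trib3, chr1:191183284-191183583 (minus) for Atf3, chr7:126625421-126625720 (minus) for Nupr1 and chr12:85599166-85599465 (plus) for Jdp2.
Atf5: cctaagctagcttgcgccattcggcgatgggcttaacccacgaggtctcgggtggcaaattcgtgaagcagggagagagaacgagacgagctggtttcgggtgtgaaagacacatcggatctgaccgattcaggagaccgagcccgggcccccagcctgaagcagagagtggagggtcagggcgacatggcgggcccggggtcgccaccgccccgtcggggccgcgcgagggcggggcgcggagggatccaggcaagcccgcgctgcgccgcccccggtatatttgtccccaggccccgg
Trib3: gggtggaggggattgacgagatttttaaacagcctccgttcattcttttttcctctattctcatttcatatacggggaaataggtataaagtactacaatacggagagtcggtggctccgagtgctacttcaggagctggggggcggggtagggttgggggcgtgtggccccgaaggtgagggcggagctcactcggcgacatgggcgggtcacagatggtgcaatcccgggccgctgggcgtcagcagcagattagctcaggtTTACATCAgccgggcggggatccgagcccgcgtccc
Atf3: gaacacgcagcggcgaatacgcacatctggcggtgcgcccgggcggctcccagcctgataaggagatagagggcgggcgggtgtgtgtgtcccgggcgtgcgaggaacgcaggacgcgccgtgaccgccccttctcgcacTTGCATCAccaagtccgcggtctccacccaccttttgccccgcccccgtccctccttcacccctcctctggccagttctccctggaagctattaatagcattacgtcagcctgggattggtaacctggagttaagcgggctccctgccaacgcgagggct
Nupr1: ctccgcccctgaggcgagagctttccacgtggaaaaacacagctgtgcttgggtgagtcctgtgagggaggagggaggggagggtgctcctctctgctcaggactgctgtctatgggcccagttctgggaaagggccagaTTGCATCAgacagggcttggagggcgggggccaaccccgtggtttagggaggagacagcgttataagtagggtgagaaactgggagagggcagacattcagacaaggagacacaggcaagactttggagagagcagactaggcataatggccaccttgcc
Jdp2: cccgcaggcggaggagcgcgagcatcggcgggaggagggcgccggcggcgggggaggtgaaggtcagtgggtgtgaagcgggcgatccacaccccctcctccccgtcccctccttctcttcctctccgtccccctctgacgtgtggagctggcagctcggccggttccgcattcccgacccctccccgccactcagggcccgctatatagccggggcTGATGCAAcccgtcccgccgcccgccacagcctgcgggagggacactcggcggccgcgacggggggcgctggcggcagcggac

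In Atf3 and in Nupr1 the match runs from -110 to -103, counted from 0 at the start and read as the reverse complement. In Jdp2 it runs from -33 to -26 on the gene's own strand, and the loose match of Trib3 lies after the start, at 14 to 21. A match of letters is a description of these windows and shows no binding.

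Ddit3 (ENSMUSG00000025408, chr10:127290774-127296288, plus strand) encodes CHOP, a C/EBP relative that pairs with ATF4 under lasting stress and is best known for promoting cell death. Its transcript stood at 51.0, 45.7 and 39.4 CPM in knockouts A, B and C, against 36.2, 40.4 and 34.6 CPM in controls A, B and C. The groups overlapped only through knockout C and control B, and the knockout was the higher library in each letter, by 0.49, 0.18 and 0.18 on the log2 scale. The log2 change was 0.29 ± 0.13, with an edgeR adjusted p of 0.689 by genotype alone and 0.252 with the letter block. Ddit3 overlaps Mars and Gm4189 on the opposite strand. GENCODE M21 also places another gene named Ddit3 inside it on the same strand, and reads of the 2 cannot be told apart by strand, so its level, also relative to Atf5, is uncertain. When reads of both strands were counted together, it kept 80, 66 and 56 reads in knockouts A, B and C and 57, 23 and 45 reads in controls A, B and C, and the log2 change was 0.60.

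Cebpg (ENSMUSG00000056216, chr7:35046422-35056573, minus strand) encodes C/EBPγ, a short C/EBP protein that pairs with ATF4 on CARE sites. It had 40.7, 41.1 and 39.5 CPM in knockouts A, B and C, against 31.8, 32.7 and 36.5 CPM in controls A, B and C. The knockouts lay close together and above all controls. The log2 change of 0.26 ± 0.11 had an edgeR adjusted p of 0.699 by genotype alone and 0.320 with the letter block, so this small separation did not pass the test. Gm44836 and Gm45094 lie inside Cebpg on the same strand, and reads shared with them were not resolved. Among the 8 tested genes the libraries of the 2 genotypes did not overlap in 3 (Atf5, Cebpg and Trib3), with knockouts above, which 5.89% of all genes tested showed. None had all knockouts below all controls, which 6.28% of all genes showed.

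Jdp2 (ENSMUSG00000034271, chr12:85599027-85639878, plus strand) encodes a Jun dimerization protein that mostly represses AP-1 and ATF sites. It had 24.4, 23.9 and 18.0 CPM in knockouts A, B and C, against 18.4, 18.2 and 21.9 CPM in controls A, B and C. As for Atf4, knockouts A and B were above every control and knockout C below every control. The log2 change was 0.18 ± 0.15 with an edgeR adjusted p of 0.859. With 1 library left out it ran from 0.10 without knockout A to 0.30 without knockout C.

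Cebpb (ENSMUSG00000056501, chr2:167688915-167690418, plus strand) encodes C/EBPβ, a stress and immune activator that is also a partner of ATF4. It had 0.617, 3.90 and 0.727 CPM in knockouts A, B and C, against 1.41, 2.11 and 1.22 CPM in controls A, B and C. Knockout B, with 42 reads, was the highest library and the other knockouts, with 6 and 7 reads, were the lowest. The log2 change of 0.19 ± 0.65 rested on knockout B and was -1.20 without it, with an edgeR adjusted p of 0.974 over all 6 libraries. A part of the Cebpb exon sequence is shared with Tmem189, which overlaps it on the opposite strand.

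Nupr1 (ENSMUSG00000030717, chr7:126623249-126630861, minus strand) encodes a small stress-induced chromatin protein downstream of ATF4. It had 0.720, 3.34 and 4.36 CPM in knockouts A, B and C, against 0.805, 3.85 and 2.55 CPM in controls A, B and C. The libraries of letter A were the lowest in both genotypes, which overlapped widely, and the log2 change was 0.26 ± 0.70 with an edgeR adjusted p of 0.964. Summed mural cell and fibroblast markers were lowest in letter A as well, at 147, 206 and 198 CPM in knockouts A, B and C. In controls A, B and C they were at 110, 207 and 137 CPM. Of this list Col1a1, Col1a2, Col3a1, Dcn and Lum were lowest in letter A in both genotypes. Pdgfrb, Rgs5, Acta2, Kcnj8 and Abcc9 were not, with Rgs5 at 109, 84.6 and 86.8 CPM in knockouts A, B and C. The part of these markers in Nupr1 was not tested.

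Atf3 (ENSMUSG00000026628, chr1:191170296-191218039, minus strand) encodes a repressor that stress, injury and neuronal activity induce within minutes to hours. It had 0, 0 and 4 reads in knockouts A, B and C, against 3, 6 and 0 reads in controls A, B and C, and was the 1 gene of the 9 left out by the filter on low counts. A count of 0 allows up to 3 reads, which is 0.309 CPM in knockout A, 0.278 CPM in knockout B and 0.306 CPM in control C, by counting error only. The mean was 0.210 CPM lower in knockouts (difference -0.210 CPM, exact two-sided permutation p = 0.7), so no difference was detectable at this depth. Of 15 tested immediate early genes, which share the fast induction of Atf3, 4 had a fitted value above 0 and 11 below, with a median log2 change of -0.27. None of the 15 passed in either edgeR fit or in DESeq2, and 3 had an unadjusted p under 0.05, all lower. DESeq2 by genotype alone gave an adjusted p to 11 of the 15. Those with the smallest p were Egr4 (-0.59 ± 0.24), Egr3 (-0.46 ± 0.18), Nr4a3 (-0.25 ± 0.11) and Egr1 (-0.35 ± 0.17).

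**Figure D2:**
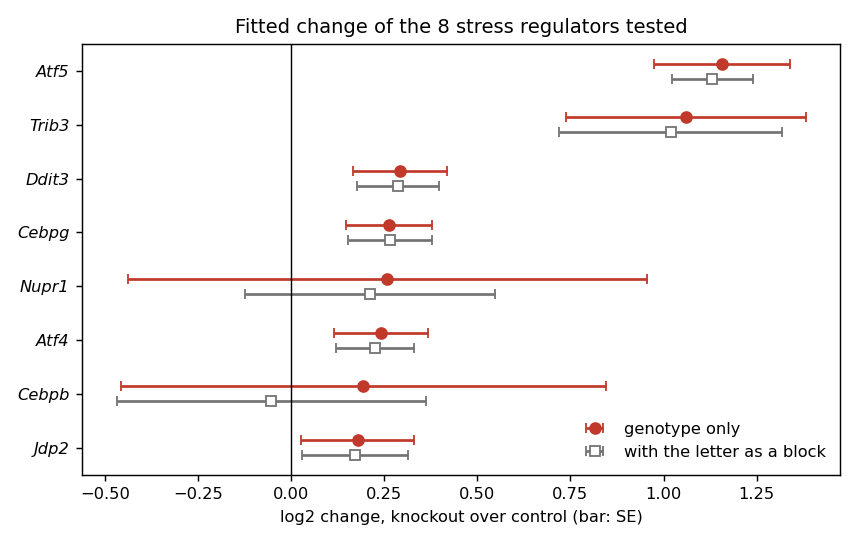
Fitted log2 change of knockout over control (horizontal axis) for the 8 regulators tested, with bars of 1 SE, by genotype alone and with the library letter as a block. Atf5 is at 1.16 ± 0.18 by genotype alone and 1.13 ± 0.11 with the block, and Cebpb and Nupr1 have the widest bars.

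All 8 tested genes had a fitted change above 0 by genotype alone, where 7490 of 14913 genes did, and their median log2 change was 0.26 against 0.0011 over all genes tested. Atf5, Trib3, Ddit3 and Cebpg, 4 of the 8, had an unadjusted p under 0.05 and a higher level in knockouts, as did 3.19% of all genes tested, and none had such a p with a lower level, as 3.81% did. These 4 were also higher in the knockout in each of the 3 letters, against 16.2% of all genes tested. The differences were uneven over the letters. The median difference of the 8 genes within a letter was 0.45 for A, 0.37 for B and 0.15 for C. Over all genes tested these medians were 0.0031, 0.0054 and -0.011.

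Relative to Atf4 reads of the same library, Atf5 and Trib3 had more reads in every knockout than in any control. Atf5 had 29.3, 28.5 and 25 reads per 100 Atf4 reads in knockouts A, B and C, against 15.0, 17.2 and 12.4 in controls A, B and C. Trib3 had 1.53, 1.32 and 0.950 reads per 100 Atf4 reads in knockouts A, B and C, against 0.783, 0.695 and 0.724 in controls A, B and C. The exact two-sided permutation p of each ratio was 0.1, the smallest possible. Ddit3 gave 13.2 ± 1.02 reads per 100 Atf4 reads in knockouts and 12.7 ± 1.48 in controls, with an exact permutation p of 0.7. The corresponding exact permutation p was 1 for Cebpg and 0.6 for Jdp2, so no difference beyond the spread of the libraries was found in these ratios.

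Per length of exon sequence (CPM per kilobase, or RPKM), the levels in knockouts ran Atf4 147, Atf5 48.4, Ddit3 26.5, Jdp2 10.3, Cebpg 7.19, Trib3 2.12, Cebpb 1.16, Nupr1 1.12 and Atf3 0.0643. In controls they ran Atf4 124, Atf5 21.7, Ddit3 21.7, Jdp2 9.09, Cebpg 5.99, Cebpb 1.05, Trib3 1.01, Nupr1 0.954 and Atf3 0.162. Neighbours in these orders did not overlap between libraries, except Trib3, Cebpb and Nupr1 with one another in turn in both genotypes, Atf5 with Ddit3 in controls, and Nupr1 with Atf3 in controls. The level of Atf5 per length was 1.96, 1.96 and 1.49 times that of Ddit3 in knockouts A, B and C, against 1.01, 1.05 and 0.951 times in controls A, B and C. By these values Atf5 was the transcript next to Atf4 in all 3 knockouts, while it overlapped with Ddit3 in controls. The level of Ddit3 is uncertain because of the gene inside it on the same strand, and so is the order of Atf5 and Ddit3.

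The genes with the pattern most like Atf5 over the 6 libraries, by Pearson's r of log2 CPM among 12799 genes, were Pabpc5 (r = 0.991), Mrpl35 (r = 0.987) and Shmt2 (r = 0.982). Those most like Atf4 were Psmb10 (r = 0.991), Plxdc2 (r = 0.986) and Zfyve16 (r = 0.984). All 6 points of each share the genotypes and library depths, and the coefficients are a description. Shmt2, a mitochondrial enzyme of serine and glycine metabolism, is also a target of ATF4, and had 61.2, 49.99 and 40.0 CPM in knockouts A, B and C against 29.3, 35.1 and 25.7 CPM in controls A, B and C.

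Of 32 known ATF4 targets of the amino acid response, 29 could be tested, of which 24 had a fitted value above 0 and 5 below, with a median log2 change of 0.43. In edgeR 2 of them passed by genotype alone, both higher in knockouts, and 10 with the letter block, all higher. DESeq2 called 7 of the 26 to which it gave an adjusted p by genotype alone, and 6 of 29 with the block. At an unadjusted edgeR p under 0.05 there were 16 higher and 1 lower, Slc3a2 (log2 change -0.41 ± 0.17, adjusted p 0.685), the heavy chain that LAT1 pairs with. Slc7a3, a cationic amino acid transporter, had 44.9, 45.2 and 33.1 CPM in knockouts A, B and C, against 10.6, 9.05 and 14.8 CPM in controls A, B and C (log2 change 1.83 ± 0.18, edgeR adjusted p 5.65e-04). Eif4ebp1, the translation inhibitor 4E-BP1, had 15.1, 13.6 and 10.2 CPM in knockouts, against 2.01, 4.47 and 2.95 CPM in controls of the same letters (2.06 ± 0.26, adjusted p 0.00445). These groups were far apart for both genes. The 8 that passed edgeR's test only with the block were Sesn2 and Chac1, a leucine-binding stress sensor and a glutathione-degrading enzyme, Mthfd2, Shmt2, Asns, Psat1 and Pycr1, enzymes of folate, serine, asparagine and proline synthesis, and the transporter Slc7a1. Their log2 changes by genotype alone ran from 0.44 ± 0.11 for Slc7a1 to 1.75 ± 0.29 for Chac1. Sesn2, Chac1, Mthfd2, Shmt2 and Asns also passed in DESeq2 by genotype alone, while Psat1, Pycr1 and Slc7a1 passed in neither DESeq2 fit. Asns lost its call in DESeq2 with the block (adjusted p 0.354).

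The targets too had their smallest median difference in letter C. The median difference of the 29 targets within a letter was 0.50 for A, 0.51 for B and 0.23 for C. The summed level of the targets still did not overlap between genotypes, at 1611, 1627 and 1529 CPM in knockouts A, B and C, against 1261, 1303 and 1379 CPM in controls A, B and C. In 21 of the 29 the knockout was higher in every letter, as in 16.2% of all genes tested. CARE letters occur in start windows of 6 of the 26 targets that have one, Chac1, Fgf21, Pycr1, Slc1a4, Slc7a11 and Vldlr, of which Chac1 and Pycr1 passed with the letter block.

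**Figure D3:**
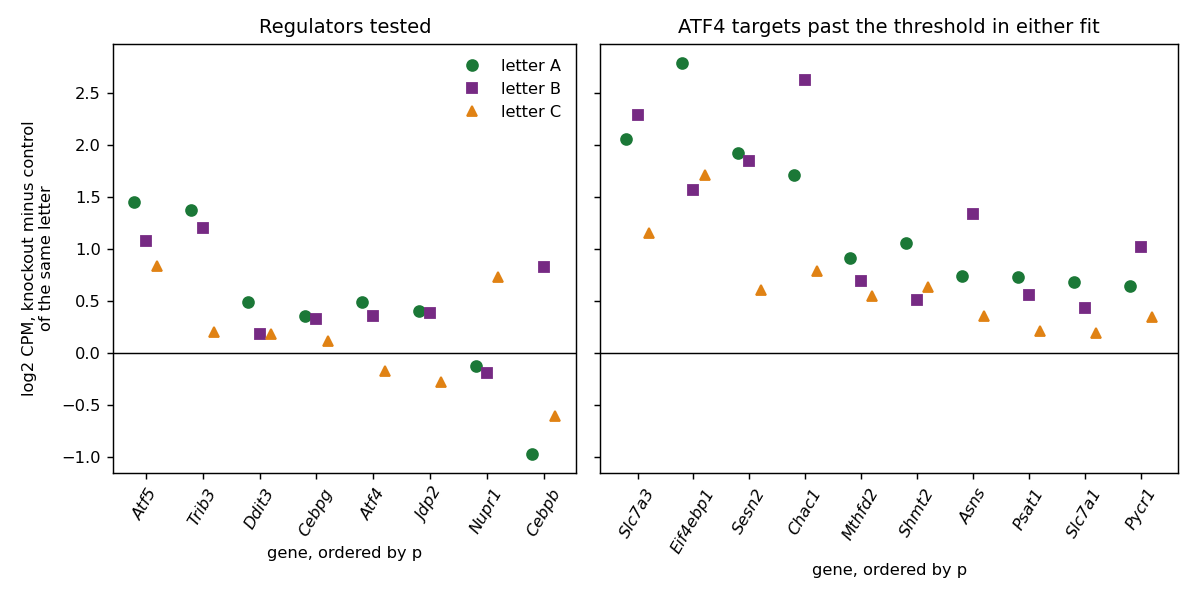
Log2 CPM of each knockout minus the control of the same letter (vertical axis) for the 8 regulators tested (left) and the 10 ATF4 targets past the threshold in either fit (right), with a symbol for each letter. Every point of the 10 targets lies above 0, but they were picked for passing, and the fit with the block favours genes whose letters agree. Among the regulators, which were not picked by a fit, points below 0 are letter C for Atf4 and Jdp2, A and C for Cebpb, and A and B for Nupr1.

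Cytosolic tRNA synthetases, another group driven by ATF4, had a fitted value above 0 in 15 of 20 and below in 5, with a median log2 change of 0.19. None passed by genotype alone in edgeR, where 10 had an unadjusted p under 0.05, all higher, and DESeq2 called 1. With the letter block 1 passed, the cysteinyl-tRNA synthetase Cars, at 50.4, 55.3 and 51.3 CPM in knockouts A, B and C, against 38.4, 30.1 and 35.7 CPM in controls A, B and C (log2 change 0.59 ± 0.12, adjusted p 0.132 by genotype alone and 0.00276 with the block). DESeq2 called Cars by genotype alone (adjusted p 0.0171) and no synthetase with the block, where the adjusted p of Cars was 0.0683. The next by p were Lars (0.35 ± 0.098), Eprs (0.32 ± 0.10) and Yars (0.30 ± 0.095), which did not pass in either fit.

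CHOP is best known for a set of cell death and stress genes. Of 10 tested, 6 had a fitted value above 0 and 4 below, with a median log2 change of 0.074. None passed by genotype alone in edgeR, where 2 higher and 1 lower had an unadjusted p under 0.05. DESeq2 called 2 of the 8 to which it gave an adjusted p by genotype alone. The 2 that passed with the letter block, Sesn2 and Chac1, are also counted among the ATF4 targets. Tnfrsf10b, a death receptor, had 0.412, 1.02 and 0.416 CPM in knockouts A, B and C, against 1.41, 0.868 and 1.63 CPM in controls A, B and C, with a log2 change of -1.06 ± 0.49 and an edgeR adjusted p of 0.710. Pmaip1, which encodes the cell death protein NOXA, had a log2 change of -0.41 ± 0.51. Neither passed the test in either fit.

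Targets of XBP1 and ATF6, the arms of the unfolded protein response that do not run through eIF2α, were higher in 5 of 18 and lower in 13, with a median log2 change of -0.12. None passed in either edgeR fit or in DESeq2, and 3 had an unadjusted p under 0.05, all lower. By genotype alone DESeq2 gave an adjusted p to 16 of the 18. Xbp1 itself had 85.0, 77.7 and 89.0 CPM in knockouts A, B and C, against 104, 105 and 110 CPM in controls A, B and C, and these groups did not overlap (log2 change -0.34 ± 0.098, edgeR adjusted p 0.441). Edem1 (-0.57 ± 0.20), Manf (-0.36 ± 0.14) and Pdia6 (-0.18 ± 0.10), which act in protein folding and disposal in the endoplasmic reticulum, followed by p. Upstream of ATF4, 9 genes of eIF2α kinases, phosphatase subunits and GCN2 partners had a median log2 change of 0.028 with 6 higher and 3 lower. The smallest p among them was that of Eif2ak3, the gene of PERK, at 33.8, 38.7 and 31.3 CPM in knockouts A, B and C, against 35.03, 53.7 and 48.1 CPM in controls A, B and C, which overlapped (-0.40 ± 0.15, adjusted p 0.621). The others named by p were Impact, Ppp1r15b and Eif2ak2, with log2 changes of 0.13, -0.10 and 0.48. None of the 9 passed in either edgeR fit or in DESeq2, with 1 (Eif2ak3) at an unadjusted p under 0.05. An adjusted p came from DESeq2 by genotype alone for 8 of the 9.

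Families related to the regulators had medians near that of all genes. Of 36 tested genes among other C/EBP, ATF/CREB, AP-1 and related bZIP factors, 17 were higher and 19 lower, with a median log2 change of -0.00070. None passed in either edgeR fit or in DESeq2, with 0 higher and 1 lower at an unadjusted p under 0.05. Only 29 of the 36 had an adjusted p in DESeq2 by genotype alone. After Xbp1 the smallest p values were those of Atf6b (-0.26 ± 0.13), Atf1 (0.29 ± 0.18) and Junb (-0.27 ± 0.18). Tribbles relatives and genes of ATF4 turnover gave 5 higher and 6 lower of 11, with a median of -0.013. The smallest p values there were those of the coactivator gene Crebbp (0.19 ± 0.11), the prolyl hydroxylase gene Egln2 (-0.17 ± 0.10) and the Trib3 relative Trib1 (-0.19 ± 0.13). The mitochondrial stress response, in which ATF5 acts as an import-sensing factor in mammalian cells, gave 6 higher and 5 lower of 11 with a median of 0.0042. The proteases Htra2 (-0.18 ± 0.12) and Afg3l2 (-0.17 ± 0.12) had the smallest p there. In these last 2 lists no gene passed in either edgeR fit or in DESeq2, and 0 had an unadjusted p under 0.05.

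**Figure D4:**
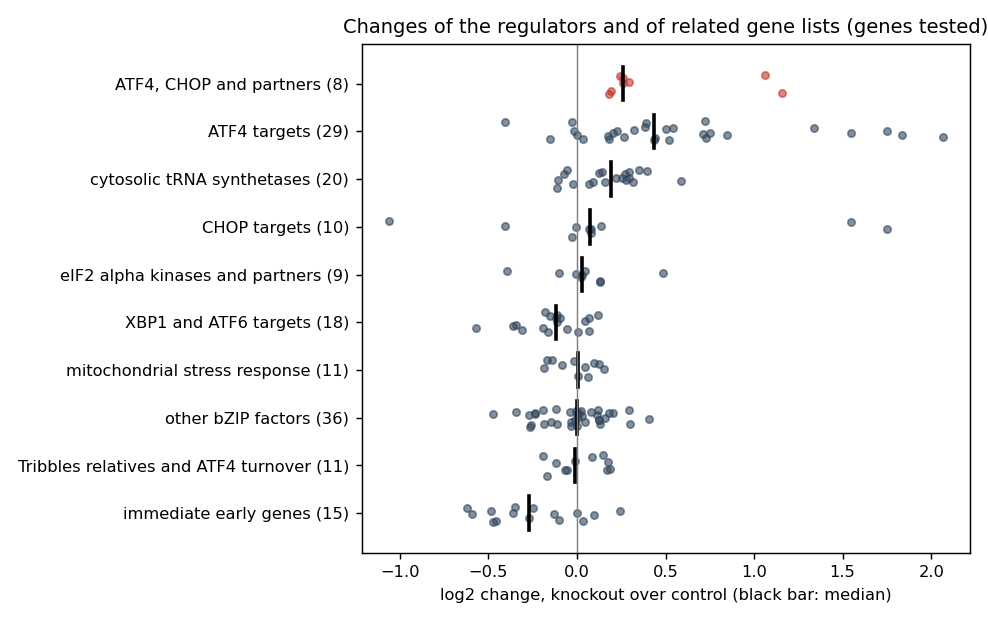
Fitted log2 change of knockout over control for the 8 regulators tested (red) and the tested genes of each related list, 1 dot per gene, with a black bar at the median. The medians are 0.26 for the regulators, 0.43 for ATF4 targets and 0.19 for tRNA synthetases, and between -0.27 and 0.074 for the other lists.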

How the data were processed

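Total RNA of 6 cortical hemispheres was made into stranded polyA libraries with a Lexogen SENSE kit, per the labels' protocols. The authors deposited raw, unscaled read counts per gene in STAR's output format. The submitters' processing notes name the builds mm10 and GRCm38, and STAR 2.5.4. Which annotation they used is not given in the sources used here. Of the stranded columns the fuller one was taken, with 17.5 to 19.2 times the reads of the other, so genes overlapping on opposite strands were counted apart. The multi-mapping line is 0 in every table, so reads shared by near-identical copies are not counted. Lines that name no gene were left out of library sizes and tests. They hold unmapped reads (26.1 to 27.7% of reads), and reads outside exons and ambiguous reads (22.5 to 27.9% and 0.689 to 0.759% of mapped reads). Symbols and coordinates come from GENCODE M21 on GRCm38.

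The genotype test was run with edgeR 4.0.16 under R 4.3.3 (filterByExpr, 14913 genes; TMM, factors 0.979 to 1.04; robust quasi-likelihood F-test, two-sided, Benjamini-Hochberg over all genes tested, threshold 0.05). CPM uses TMM-scaled sizes, within-letter differences use log2 CPM with a prior count of 2, and an SE is the log2 change divided by the square root of F. A background share is that of all genes tested. Alternatives were DESeq2 1.42.0, limma-voom 3.58.1, other scalings and filters, reads of either strand, leaving out libraries, and the letter as a replicate block.

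Deviations from the group means correlated at 0.417, 0.342 and 0.211 between knockout and control of the same letter (A, B and C). Without genes of chromosomes X and Y the same-letter values were 0.393, 0.242 and 0.182. Between different letters the highest value was -0.0310 over all genes tested and 0.0360 without X and Y. Centring each group on its mean pulls the different-letter values down when same-letter values are above 0, so they add no support for pairing. All 3 same-letter values exceed 0.1, so libraries of 1 letter were treated as pairs in the fits with the letter block and in within-letter differences. The main fit used genotype alone. The pairing rests on the same-letter correlation alone, as the labels leave the letters unexplained. The series' design text calls the libraries biological replicates, and no 2 of them agreed within sampling noise, with 3.78 as the lowest ratio of chi-square to its degrees of freedom over all pairs. The members and gene lists were chosen with earlier results of these data known. Beyond the 9 regulators and Slc7a5, the genes named from a pathway list were those past the threshold in either edgeR fit and, up to 4 in all, those with the smallest p by genotype alone. Cell type lists are given as summed CPM, with single markers named only beside Nupr1. For Atf4 and the regulator with the smallest p, the 3 genes with the highest Pearson correlation were named.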

Additional observations from a re-analysis of the deposited data

How the results depend on the processing

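By genotype alone, a fit that leaves out the pairing of the letters, 5 genes passed, and 0 of the 9 regulators. With the replicate block 126 genes passed and 1 regulator (Atf5), which also passed without the low-count filter (71 genes), with DESeq2 (27 genes), with DESeq2 and the block (23 genes) and without knockout C. Library totals in place of TMM gave 10 genes and the non-robust fit 2. Leaving out 1 library gave 1 to 9 genes (1 without knockout B, 9 without knockout C) and 0 to 1 regulators. With the block, leaving out both libraries of a letter gave 228 (A), 161 (B) and 77 (C) genes and 1 to 2 regulators, 2 (Atf5 and Trib3) without C. Atf5 passed in 8 of 19 alternatives and Trib3 in 1, and Trib3 had no adjusted p in DESeq2 by genotype alone. Atf4, Atf5, Ddit3, Cebpg, Trib3 and Jdp2 kept a fitted value above 0 in all 19. Cebpb reversed to -0.054 with the block, -0.26 with DESeq2 and the block and -0.26 with limma-voom, and ran from -1.20 to 0.59 with libraries left out (-0.95 without B, with the block). Nupr1 ran from -0.19 to 0.75 with libraries left out. For Atf3 the difference ran from -0.385 to -0.0124 CPM. The causes of these shifts were not tested. Depth limits Atf3, Cebpb, Nupr1 and Trib3, which had at most 59 reads in any library, and 3 libraries a genotype limit every permutation p to at least 0.1.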
